A study of Saccharomyces cerevisiae with 16 samples.

Results

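Of the 328 genes whose systematic names begin with YEL or YER, the names given to the left and right arms of chromosome V of budding yeast (Saccharomyces cerevisiae), 298 are described here as chromosome V genes. They comprise 83 left-arm and 215 right-arm genes among the 7125 genes of the series. The other 30 were set aside by rule, 22 listed by identifier and 8 because their names mark them as ribosomal protein or ribosome assembly genes. The chromosome was chosen by the ratio of CK2 to WT levels of its genes in these same libraries, so every CK2 against WT value below is a description and carries no test. The NCBI reference of build sacCer3 (R64) held 259 of the 298, all on chromosome V, and the other 39 are identified by name alone.

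The series measured RNA by sequencing in 6 groups of 2 biological replicates each, all grown in the rich medium YPD. The groups were serine (cells treated with serine) and its control (genotype wt), CK2 and WT (genotype wt), and H3T11A, in which threonine 11 of histone H3 is alanine, and YBL574. The labels do not say which gene or allele CK2 stands for, what YBL574 carries, or how control and WT differ, and no clone number, strain background or cross is given for any group. YBL574 and H3T11A had 2 technical libraries for each extraction, which were averaged. Values are RPKM, reads scaled to the length of the gene and the read total of the library, and a log2 ratio is the log2 of the 2 group means after adding 1. Of the 298 genes, 284 reached 1 RPKM in 2 or more of the 12 biological replicates and were analysed further.

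Budding yeast is commonly grown as a haploid with a single copy of each chromosome. A cell that gains an extra copy of a chromosome generally makes more RNA from most genes on it, a relation called gene dosage, while some genes depart from it because their own regulation sets their level. Genes of the cell cycle, of ribosome assembly and of stress responses are among those whose level is set strongly by growth and regulators. DNA copy number was not measured here, so all values below are RNA levels.

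Some libraries stood apart from the rest. CKA1, a catalytic subunit gene of casein kinase 2 that lies on another chromosome, had 0.064 and 0.068 RPKM in the CK2 replicates, against 66.9 and 57.5 RPKM in WT. The 6 a-type mating genes summed to 34.2 and 31.0 RPKM in CK2, against 1838 and 1846 in WT, and the 4 alpha-type mating genes to 460 and 442 RPKM in CK2, against 18.2 and 23.3 in WT. By these sums, the serine and control replicates had the alpha-type pattern of CK2, and the H3T11A and YBL574 replicates the a-type pattern of WT. Not every alpha-type gene followed the sums. SAG1 had means of 17.2 RPKM in control and 18.5 RPKM in H3T11A. MF(ALPHA)2 had 15.6 RPKM in CK2, against 1.76 RPKM in serine and 1.74 RPKM in control. CK2 replicate 2 had 0.711 RPKM of the mitochondrial gene COX1 and 0.493 RPKM of COB, where CK2 replicate 3 had 941 and 677 RPKM. The mitochondrial genes COX2 and COX3 were not low there. They had 772 and 2281 RPKM in CK2 replicate 2, against 932 and 1326 RPKM in CK2 replicate 3. H3T11A and YBL574 also stood apart from each other. The histone H3 genes HHT1 and HHT2, on other chromosomes, had means of 8.28 and 1039 RPKM in H3T11A, against 1144 and 243 RPKM in YBL574. TRP1 had a mean of 98.1 RPKM in H3T11A and 0.678 RPKM in YBL574. The part of these differences in the values below was not tested.

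The promoters of 4 genes that departed from the general CK2 level are printed here. DSE1 and TIR1 had the lowest and the highest CK2 to WT ratio among genes of at least 10 RPKM. RGI1, with a ratio near 1, and ADK2, with a ratio above the general level, were less extreme and are shown as windows that hold searched motifs, chosen after their values were seen. Each runs from 250 bases before the annotated gene start to 50 bases from it, 5′ to 3′ on the strand of the gene, from RefSeq build R64. Capitals mark the start codon, and in RGI1 and ADK2 also the matches to the motifs named below, on either strand. DSE1 lies on the minus strand at chrV:409014-409313, RGI1 on the plus strand at chrV:291816-292115, ADK2 on the plus strand at chrV:525724-526023 and TIR1 on the plus strand at chrV:174998-175297.
DSE1: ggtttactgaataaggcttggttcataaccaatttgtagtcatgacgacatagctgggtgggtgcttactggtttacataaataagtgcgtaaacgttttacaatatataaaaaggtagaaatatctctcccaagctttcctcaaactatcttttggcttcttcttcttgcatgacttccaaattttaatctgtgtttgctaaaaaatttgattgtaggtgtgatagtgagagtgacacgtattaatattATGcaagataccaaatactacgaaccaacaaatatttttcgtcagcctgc
RGI1: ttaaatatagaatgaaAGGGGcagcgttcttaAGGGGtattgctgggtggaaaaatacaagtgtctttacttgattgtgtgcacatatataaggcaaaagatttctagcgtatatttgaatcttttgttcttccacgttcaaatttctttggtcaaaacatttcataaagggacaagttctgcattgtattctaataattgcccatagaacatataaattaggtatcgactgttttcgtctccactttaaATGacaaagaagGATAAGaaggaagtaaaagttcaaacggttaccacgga
ADK2: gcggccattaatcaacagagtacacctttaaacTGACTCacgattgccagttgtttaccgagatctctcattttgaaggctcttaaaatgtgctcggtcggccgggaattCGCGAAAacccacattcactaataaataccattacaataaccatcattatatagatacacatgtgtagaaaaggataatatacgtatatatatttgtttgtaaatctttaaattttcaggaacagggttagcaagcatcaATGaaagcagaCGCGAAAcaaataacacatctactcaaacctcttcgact
TIR1: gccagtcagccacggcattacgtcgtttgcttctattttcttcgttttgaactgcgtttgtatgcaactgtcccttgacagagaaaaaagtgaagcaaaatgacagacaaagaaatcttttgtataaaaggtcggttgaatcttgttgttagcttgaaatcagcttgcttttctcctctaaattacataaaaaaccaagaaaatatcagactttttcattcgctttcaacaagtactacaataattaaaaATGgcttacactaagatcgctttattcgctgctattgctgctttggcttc

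RGI1 holds 2 matches to AGGGG, the core of the stress response element, and 1 to GATAAG, the site of GATA factors, which lies inside the coding sequence. ADK2 holds TGACTC, the core of the Gcn4 site, and 2 matches to CGCGAAA, the core of the site of the G1 factor SBF, 1 of them inside the coding sequence. None of the motifs named below was found in the DSE1 and TIR1 windows.

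CK2 cells had higher RNA levels than WT cells across nearly the whole of chromosome V. The median log2 ratio of the 284 genes was 0.92, a 1.89-fold higher level, with quartiles of 0.62 and 1.10. Each CK2 replicate taken alone against the WT mean gave 0.90 and 0.88. The median of the 6185 analysed genes on the other 15 nuclear chromosomes was -0.01, with quartiles of -0.33 and 0.25. Both CK2 replicates lay above both WT replicates in 259 of the 284 genes, where 38.6% of all 6727 genes did so. Both lay below in 7 of the 284, where 37.6% of all genes did so, and the groups overlapped in 18. As the genes were chosen for this contrast, nothing is read from these counts.

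The same difference was seen in the share of reads. The 259 annotated genes took 5.78% and 5.75% of the reads on annotated nuclear genes in the CK2 replicates, against 3.14% and 3.10% in the WT replicates, a mean of 5.77% ± 0.022 in CK2 and 3.12% ± 0.028 in WT (SD, n = 2 each). The share was 3.07% and 3.00% in serine, against 3.06% and 3.05% in control. It was 2.72% and 2.80% in H3T11A, against 2.91% and 2.78% in YBL574. The CK2 replicates thus lay above the 10 others, whose shares ran from 2.72% to 3.14%.

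No other chromosome and no other group had a comparable value. When each replicate was divided by the mean of the groups other than its own and CK2, and the median of the genes on the other chromosomes was subtracted, chromosome V genes had a median log2 level of 0.91 in CK2 replicate 2 and 0.92 in CK2 replicate 3. In the 10 other replicates this median lay between -0.03 and 0.06. The medians of the 15 other chromosomes lay between -0.11 and 0.33 over all 12 replicates, the highest being chromosome I in H3T11A replicate 3. In the direct CK2 to WT ratio, the other chromosomes had medians from -0.05 (chromosome II) to 0.02 (chromosome IX).

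**Figure D1:**
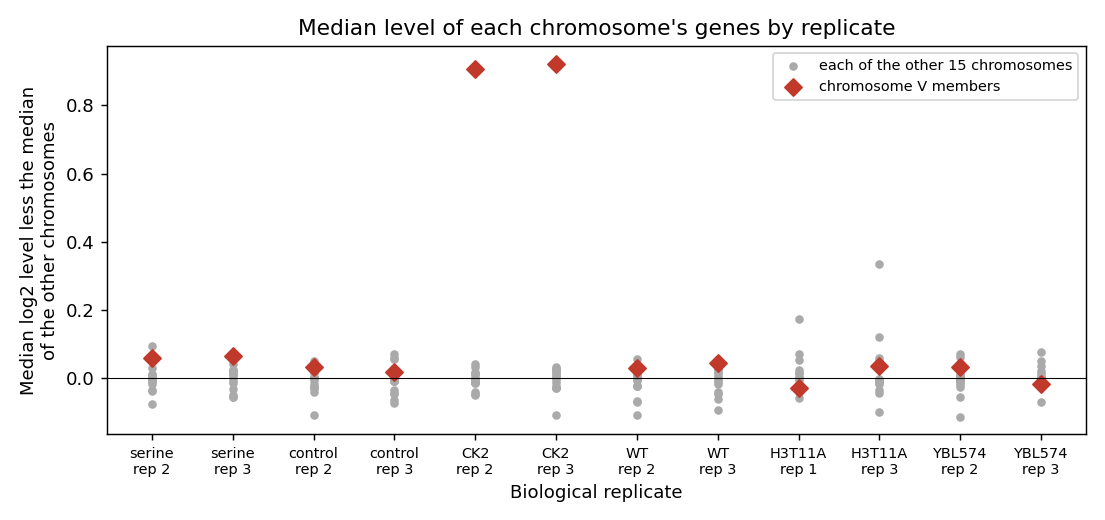
Each column is 1 of the 12 biological replicates, and the vertical axis is the median log2 level of a chromosome's genes relative to the other groups (CK2 left out of the divisor), less the median of all genes outside chromosome V. Red diamonds are chromosome V genes and grey points the 15 other chromosomes; the 2 CK2 replicates sit at 0.91 and 0.92 and the 10 others between -0.03 and 0.06.

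The choice of the group set against CK2 changed this picture little once the other chromosomes were subtracted. The median log2 ratio of chromosome V genes less that of the other chromosomes was 0.90 for CK2 over serine, 0.93 over control, 0.90 over H3T11A, 0.91 over YBL574 and 0.93 over WT. These 5 ratios share the CK2 replicates and are not independent of each other.

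The higher level in CK2 ran along both arms. The median log2 ratio was 0.90 over 78 left-arm genes and 0.92 over 206 right-arm genes. Among the 256 analysed genes with a position, the medians of 12 bins of 50 kb lay between 0.68 and 1.05. The lowest were 0.68 over the 22 genes between 250 and 300 kb, a bin that holds YER053C-A and VHR2, and 0.70 over the 24 genes between 50 and 100 kb. The highest was 1.05 over the 21 genes of the first 50 kb. Near the telomeres, the 14 genes whose midpoints lay under 20 kb from an end gave a median of 1.03, where the other genes with a position gave 0.93. No bin and neither arm was at the level of the other chromosomes.

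**Figure D2:**
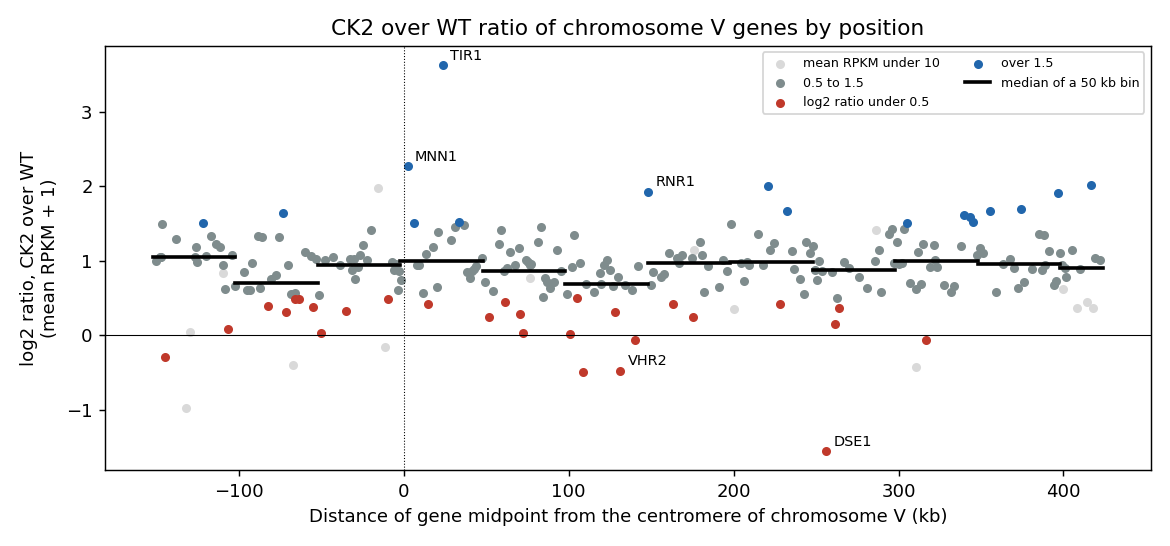
Each point is 1 of the 256 analysed chromosome V genes with a position, with the distance of its midpoint from the centromere on the horizontal axis (kb, left arm negative) and the log2 ratio of CK2 to WT on the vertical axis. Black bars are medians of 50 kb bins, which lie between 0.68 and 1.05; red, grey and blue points have ratios under 0.5, from 0.5 to 1.5 and over 1.5, and pale points are genes with a mean RPKM under 10.

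The ratio differed with the level of the gene among chromosome V genes, and genes of the other chromosomes were not split by level. Genes with a WT mean between 10 and 30 RPKM had a median log2 ratio of 1.02 (69 genes), and those between 30 and 100 RPKM one of 0.94 (101 genes). The 41 genes between 100 and 300 RPKM had a median of 0.76, and the 20 genes above 300 RPKM one of 0.57. Below 10 RPKM the median was 0.72 (53 genes). Adding 1 to each value brings ratios at that level closer to no change, and its part in this median was not tested. The 6 genes with the highest WT level were SPI1, BMH1, HYP2, VMA3, RGI1 and YER138C. BMH1, a 14-3-3 protein that binds phosphorylated partners, had 1468 and 1324 RPKM in CK2, against 887 and 862 RPKM in WT, a log2 ratio of 0.68. VMA3, a subunit of the membrane ring of the vacuolar proton pump, had 1100 and 1081 RPKM in CK2, against 778 and 723 RPKM in WT, a log2 ratio of 0.54. YER138C had 1160 and 1397 RPKM in CK2, against 466 and 528 RPKM in WT, a log2 ratio of 1.36. It belongs to a Ty1 retrotransposon with many near-identical copies, so its reads could be split among copies.

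Among the 244 genes with a mean of at least 10 RPKM in CK2 or WT, 198 (81.1%) had a log2 ratio from 0.5 to 1.5 and are called following. A gene under 10 RPKM in WT could enter this set only if its CK2 level was higher. The ratio was under 0.5 in 29 genes, called not following, where 86.6% of all genes at that level were under 0.5. It was over 1.5 in 17 genes, called above the general level, where 1.68% of all genes were. Just inside the lower limit were HOM3 at 0.496 and MCM3 at 0.491, and just outside it LCP5 at 0.501 and SAH1 at 0.509. Just inside the upper limit were AVT2 at 1.504 and PMI40 at 1.505, and YEL075C at 1.492 was outside it. Of the 29 genes, 3 had both CK2 replicates below both WT replicates, 9 overlapped, and 17 still had both CK2 replicates above both WT replicates.

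DSE1, which encodes a daughter-cell protein of cell separation, was furthest below. It had 135 and 82.0 RPKM in CK2, against 343 and 296 RPKM in WT, a log2 ratio of -1.55. VHR2, a transcriptional regulator, had 108 and 92.1 RPKM in CK2, against 138 and 140.0 RPKM in WT, a ratio of -0.47. YER053C-A had 99.5 and 82.9 RPKM in CK2, against 120 and 138 RPKM in WT, a ratio of -0.49. In these 3 genes the CK2 replicates were low and the WT replicates high, with no overlap.

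The other genes among the 12 smallest ratios had CK2 levels close to those of WT. SPI1, a cell wall protein induced as cultures age, had 1148 and 1486 RPKM in CK2, against 1344 and 1402 RPKM in WT, a log2 ratio of -0.06. RGI1, a gene induced in respiratory growth, had 530 and 761 RPKM in CK2, against 649 and 693 RPKM in WT, also -0.06. In both genes the CK2 values straddled those of WT, with replicate 2 the lower. YEL073C had 21.6 and 15.8 RPKM in CK2, against 19.5 and 26.7 RPKM in WT, a ratio of -0.30. YEL034C-A had 17.7 and 15.04 RPKM in CK2, against 15.5 and 18.0 RPKM in WT, a ratio of -0.03. The use of strand in the counting is not given in the sources used here, so reads of overlapping or antisense genes cannot be told apart.

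The remaining members of that set act mostly on ribosomes and RNA. ARB1, an ATPase of ribosome assembly, had 331 and 306 RPKM in CK2, against 321 and 300.2 RPKM in WT, a log2 ratio of 0.04. SNU13, a protein of both the snoRNA and the spliceosome particles, had 307 and 327 RPKM in CK2, against 330 and 291 RPKM in WT, a ratio of 0.03. The CK2 and WT values overlapped in both. NSA2, a large-subunit assembly factor, had 194 and 200.3 RPKM in CK2, against 194 and 161 RPKM in WT, a ratio of 0.15. TPA1, which acts in translation termination, had 93.0 and 93.4 RPKM in CK2, against 94.1 and 90.3 RPKM in WT, a ratio of 0.02. SDD1 had 23.2 and 26.5 RPKM in CK2, against 22.7 and 24.1 RPKM in WT, a ratio of 0.08. The other 17 genes not following had ratios between 0.25 and 0.50. They were YAT2, YER084W, EDC2, UTR4, GPP2, TIM9, VFA1, BUD16, IES6, KAP123, TMA20, MRX1, CHZ1, HYP2, MIT1, MCM3 and HOM3.

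TIR1, a cell wall mannoprotein known from cold and low oxygen, was furthest above the general level. It had 477 and 686 RPKM in CK2, against 34.7 and 58.0 RPKM in WT, a log2 ratio of 3.62. MNN1, a Golgi mannosyltransferase, had 223 and 246 RPKM in CK2, against 46.9 and 48.7 RPKM in WT, a ratio of 2.27. RNR1, the large subunit of the enzyme that makes deoxyribonucleotides, had 548 and 527 RPKM in CK2, against 139 and 142 RPKM in WT, a ratio of 1.93. In each of the 3 genes the CK2 and WT values were far apart relative to the spread within a group.

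SWI4, the DNA-binding subunit of SBF, had 79.1 and 71.2 RPKM in CK2, against 22.6 and 23.3 RPKM in WT, a log2 ratio of 1.67. ADK2, a mitochondrial adenylate kinase, had 58.3 and 48.2 RPKM in CK2, against 15.3 and 16.1 RPKM in WT, a ratio of 1.70. The meiotic genes MAM1 and DMC1 were among the largest ratios at low levels. Both had means under 10 RPKM in WT and entered only through CK2, the group in which they were high. MAM1, a subunit of the monopolin complex, had 13.3 and 13.1 RPKM in CK2, against 1.99 and 3.12 RPKM in WT, a ratio of 2.00. DMC1, a meiotic recombinase, had 9.80 and 15.7 RPKM in CK2, against 2.53 and 2.82 RPKM in WT, a ratio of 1.90. YER188W, a gene of the right chromosome end, had 79.3 and 47.2 RPKM in CK2, against 9.58 and 20.2 RPKM in WT, a ratio of 2.01. The other 9 genes above the general level were CHD1, UTR2, BUR6, YER160C, YER159C-A, FAA2, DDI1, PMI40 and AVT2, with ratios between 1.504 and 1.671. YER160C and YER159C-A are Ty1 genes and as uncertain as YER138C.

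**Figure D3:**
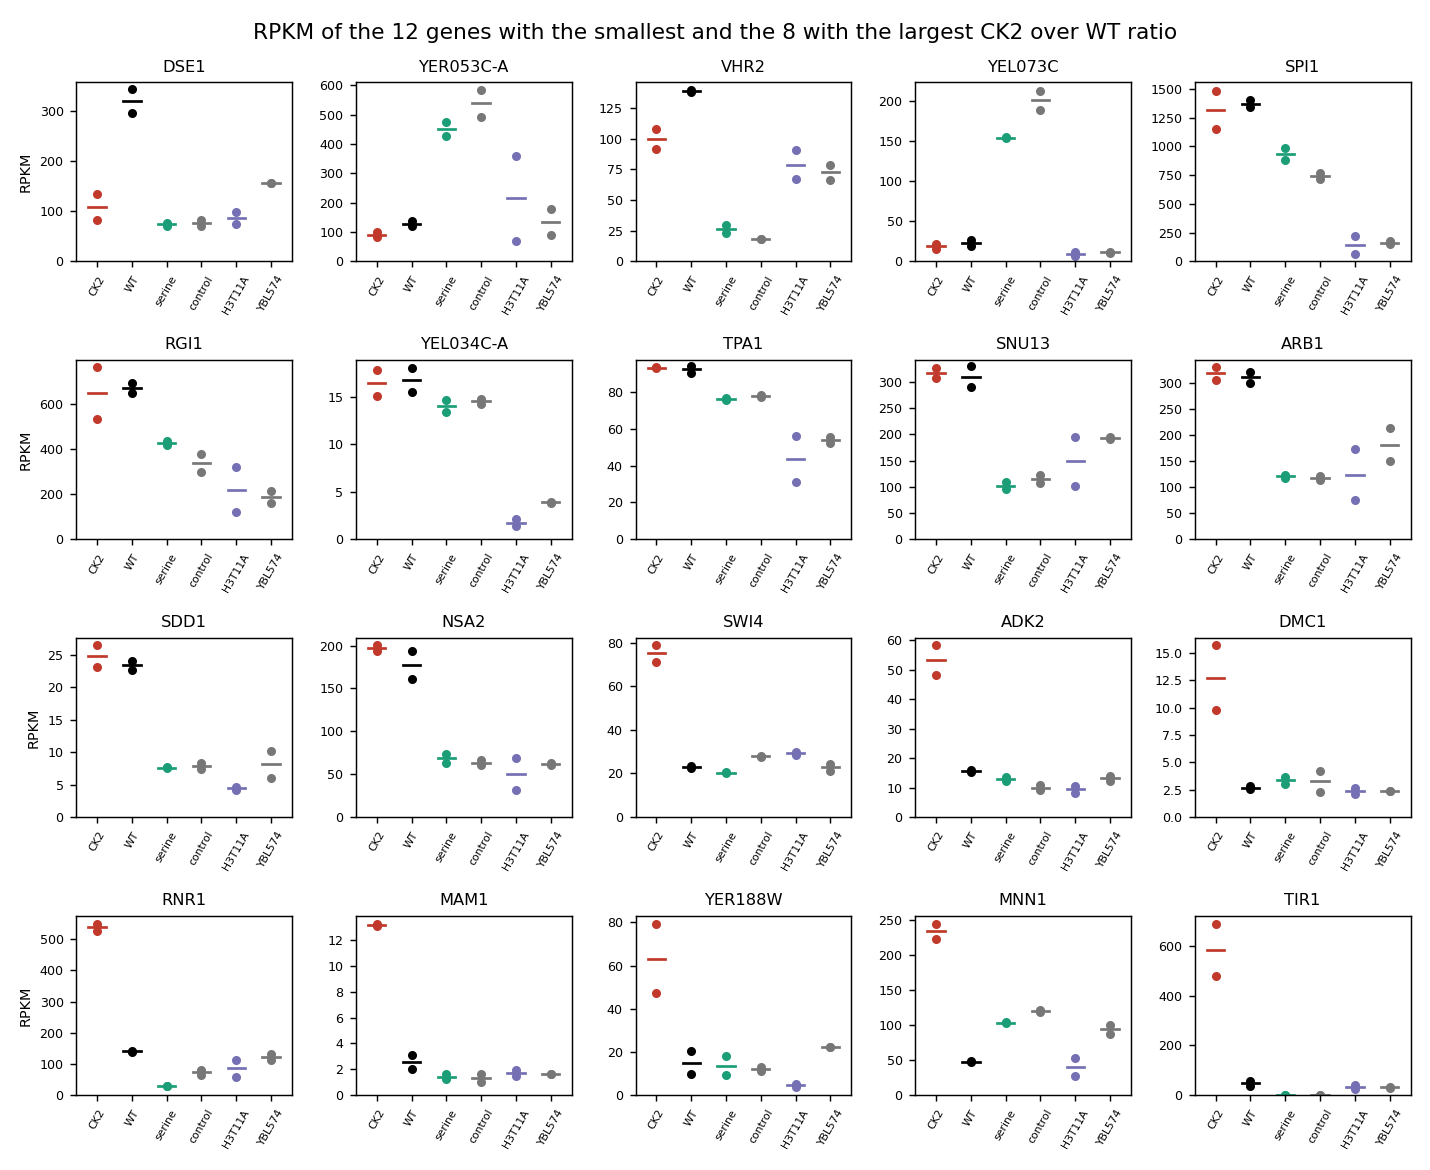
RPKM (linear axis from 0) of the 12 chromosome V genes with the smallest and the 8 with the largest log2 ratio of CK2 to WT, by group. Points are biological replicates and bars their means; DSE1 has 135 and 82.0 RPKM in CK2 below 343 and 296 in WT, and TIR1 477 and 686 RPKM in CK2 above 34.7 and 58.0 in WT.

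Most of the 29 genes not following were no longer under 0.5 when another group stood in the divisor. Of the 29, 14 stayed under 0.5 over serine, 13 over control, 9 over H3T11A and 10 over YBL574. NSA2 had a log2 ratio of 1.51 for CK2 over serine, 1.63 over control, 1.96 over H3T11A and 1.65 over YBL574, against 0.15 over WT, and thus lay above the upper limit with each of those 4. ARB1 had 1.40, 1.44, 1.36 and 0.81 in the same order, and SNU13 1.63, 1.45, 1.09 and 0.71. TIR1 stood above with every divisor, at 8.63, 8.97, 4.12 and 4.19. DSE1 was under the median of chromosome V genes with every divisor, at 0.55, 0.51, 0.32 and -0.52. MNN1 had 1.17, 0.96, 2.52 and 1.30. The number of genes under 0.5 was 50 over serine, 49 over control, 27 over H3T11A and 23 over YBL574, of the same 244. The limit of 0.5 was kept, though the other chromosomes had medians of 0.17, 0.19, 0.43 and 0.40 in the same order. The ratios share the CK2 replicates.

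By role, the lists differed in their medians. The 10 lists were chosen with earlier results of these data known, and their medians stand beside the 0.92 of all 284 genes. Of 15 genes of DNA replication, repair and chromosome segregation, the median log2 ratio was 1.23, with 1 not following and 1 above. MCM3, a subunit of the replicative helicase, had 90.6 and 76.7 RPKM in CK2, against 59.3 and 59.2 RPKM in WT, and was the lowest of that list. RNR1 was the highest. Of 11 chromatin and transcription genes, the median was 1.07, with 1 not following and 3 above. IES6, a subunit of the INO80 remodeller, was lowest at 63.9 and 72.7 RPKM in CK2, against 50.8 and 52.2 RPKM in WT. CHD1, a nucleosome spacing remodeller, was highest at 146 and 130 RPKM in CK2, against 43.1 and 42.2 RPKM in WT.

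RNA and protein synthesis genes had smaller ratios. Of 12 genes of mRNA processing and nuclear transport, the median log2 ratio was 0.77, with 3 not following. SNU13 was lowest, and PRP22, a splicing helicase, highest with 56.7 and 52.9 RPKM in CK2, against 20.9 and 22.9 RPKM in WT. Of 7 translation and ribosome assembly genes outside the families set aside, the median was 0.50, the smallest of the 10 lists, with 3 not following. ARB1 was lowest and CCA1, which adds the ends of tRNAs, highest at 62.9 and 61.2 RPKM in CK2, against 33.7 and 31.5 RPKM in WT. HYP2, the translation factor eIF5A, had 1185 and 1147 RPKM in CK2, against 867 and 803 RPKM in WT, a ratio of 0.48. On other chromosomes, genes with UTP, NOP and RRP names had a median of -0.51, and RPL and RPS genes one of -0.58. The lists were not set against like genes elsewhere, so whether their genes departed from such genes was not tested.

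The genes set aside by name were also above their families. The 6 ribosomal protein genes of chromosome V (RPL and RPS names) had a median log2 ratio of 0.34, between 0.14 and 0.48, where the 126 on other chromosomes had -0.58. The median difference was 0.92. UTP7 and NOP16, both factors of rRNA processing, had 0.59 and 0.75, where the 51 genes with UTP, NOP and RRP names on other chromosomes had a median of -0.51. All 30 genes set aside had a median of 0.55.

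Surface genes had the widest range of the 10 lists. Of 8 cell wall and surface genes, the median log2 ratio was 1.04, with DSE1 and SPI1 not following and TIR1, MNN1 and UTR2 above. Of 13 vacuole and membrane traffic genes, the median was 1.00, none was under 0.5, and the range ran from VMA3 to AVT2. AVT2, a putative amino acid transporter, had 52.2 and 50.9 RPKM in CK2, against 17.3 and 17.7 RPKM in WT. Of 8 permeases and carriers, the median was 0.96. FCY2, the purine and cytosine permease, was lowest of the 7 at or above 10 RPKM, with 667 and 583 RPKM in CK2, against 447 and 391 RPKM in WT. CAN1, the arginine permease, was highest with 252 and 272 RPKM in CK2, against 128 and 121 RPKM in WT.

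Signalling and protein turnover genes all followed. Their 16 genes had a median log2 ratio of 0.94, between 0.63 for GLC7, the catalytic subunit of protein phosphatase 1, and 1.41 for UBC8, a ubiquitin-conjugating enzyme. GLC7 had 492 and 470 RPKM in CK2, against 317 and 303 RPKM in WT. UBC8 had 107 and 105 RPKM in CK2, against 38.1 and 40.5 RPKM in WT. Of 17 metabolic enzymes, the median was 0.88, with 1 not following and 3 above. GPP2, which makes glycerol, was lowest with 506 and 420 RPKM in CK2, against 351 and 397 RPKM in WT. Of 7 meiosis and sporulation genes, the median was 0.72, with MAM1 and DMC1 above, both admitted only through their CK2 level. SPR6, a sporulation gene, was lowest of the 6 at or above 10 RPKM, with 70.2 and 69.7 RPKM in CK2, against 45.8 and 49.1 RPKM in WT.

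**Figure D4:**
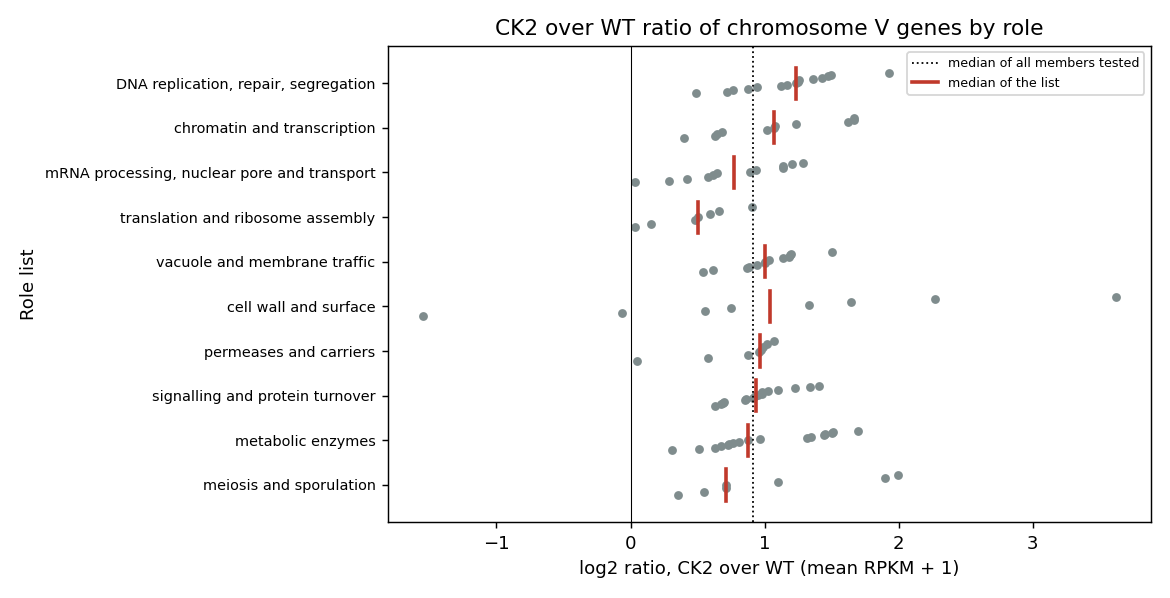
Each point is a chromosome V gene of 1 of the 10 role lists, with its log2 ratio of CK2 to WT on the horizontal axis. Red bars are list medians, from 0.50 (translation and ribosome assembly) to 1.23 (DNA replication, repair and segregation), and the dotted line is the 0.92 median of all 284 genes.

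Matches to promoter motifs were counted in the genes not following, following and above. The window of 250 bases before to 50 after the gene start was searched on both strands for the stress element core AGGGG, the MBF site ACGCGT, the SBF site CGCGAAA, the pheromone response element TGAAACA, the Gcn4 core TGACTC, the GATA factor site GATAAG, the Aft1 site TGCACCC, the sterol element TCGTATA and the Ume6 core GCCGCC. Matches of the MBF and SBF sites can overlap. AGGGG was present in 8 of 28 promoters of genes not following (28.6%), in 46 of 194 of genes following (23.7%), in 2 of 17 of genes above (11.8%) and in 21.6% of all 5987 promoters. The 8 were those of CHZ1, UTR4, ARB1, YEL073C, IES6, YER053C-A, RGI1 and EDC2. CGCGAAA was present in 2 of 17 promoters of genes above, those of ADK2 and UTR2, in none of 28 of genes not following, in 5 of 194 of genes following and in 3.6% of all promoters. TGACTC was present in none of 28, 17 of 194, 2 of 17 (ADK2 and FAA2) and 8.0% of all promoters. GATAAG was present in 3 of 28, 39 of 194, 1 of 17 and 14.7% of all promoters. In the same order, ACGCGT was present in 0, 11, 0 and 3.1%, and TGAAACA in 0, 10, 0 and 7.5%. GCCGCC was present in 0, 7, 2 (FAA2 and DMC1) and 5.1%. TCGTATA was present in 1, 12, 0 and 4.1%, and TGCACCC in 0, 1, 0 and 1.3%. The differences between the classes were not tested. These are matches of letters only.

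Of the tested comparisons, serine against control and H3T11A against YBL574 hold no CK2 or WT library, the libraries that chose these genes. Control against WT and YBL574 against WT reuse the WT libraries, and the limma spread shared by all groups includes CK2 as well. With serine against control, chromosome V genes stayed near control. By limma with Benjamini-Hochberg adjustment over 6727 genes, 1 of 284 genes rose (0.714% of all genes rose) and 1 fell (0.624% of all genes fell). RNR1 had 29.0 and 29.2 RPKM in serine, against 81.3 and 65.0 RPKM in control, a log2 fold change of -1.29 (SE 0.24, limma adjusted p = 0.0433). YEL074W had 9.33 and 9.07 RPKM in serine, against 5.95 and 4.27 RPKM in control, a log2 fold change of 0.75 (SE 0.14, limma adjusted p = 0.0466). The replicates did not overlap in either gene. The median log2 fold change was 0.03 over the 284 genes and 0.00 over all genes. Both calls were lost in a fit of the 2 groups alone (limma adjusted p = 0.0614 for RNR1 and 0.124 for YEL074W). They were also lost when any 1 of the 4 serine and control libraries was left out. Of 13 alternatives, YEL074W lost its call in 11 and RNR1 in 8.

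With H3T11A against YBL574, chromosome V genes were called at shares near those of all genes. By limma, 45 of 284 rose (15.8%) and 62 fell (21.8%), where 19.1% and 21.6% of all genes did. The median log2 fold change was -0.04 over the 284 genes and -0.06 over all genes. H3T11A and YBL574 also differed at HHT1, HHT2 and TRP1, and the substitution and any other difference cannot be told apart. The calls rested on the spread shared by all 6 groups: a fit of the 2 groups alone called 12 genes, 3 higher and 9 lower. Leaving out YBL574 replicate 2 or 3 gave 57 or 62 calls.

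Among the genes that fell, YER188W had 4.94 and 3.91 RPKM in H3T11A, against 22.25 and 22.03 RPKM in YBL574 (log2 fold change -2.10, SE 0.38, limma adjusted p = 0.0031). TMT1, a methyltransferase of trans-aconitate, had 28.2 and 37.3 RPKM in H3T11A, against 127 and 123 RPKM in YBL574 (-1.91, SE 0.16, limma adjusted p = 7.75e-05). YER088C-A had 27.5 and 23.5 RPKM in H3T11A, against 94.6 and 96.5 RPKM in YBL574. These 3 kept limma adjusted p values under 0.05 in a fit of the 2 groups alone (0.0251, 0.0344 and 0.0265, the highest over their alternatives). HOM3, the aspartate kinase, had 92.8 and 38.2 RPKM in H3T11A, against 200 and 205 RPKM in YBL574, and FCY2 had 82.3 and 36.6 RPKM in H3T11A, against 192 and 172 RPKM in YBL574. The H3T11A replicates of both genes differed more than 2-fold from each other, replicate 3 being the lower. Their calls were lost in the fit of the 2 groups alone (limma adjusted p = 0.0913 for HOM3 and 0.0843 for FCY2).

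Among the genes that rose, TSC11, a subunit of TOR complex 2, had 33.7 and 40.2 RPKM in H3T11A, against 16.3 and 16.4 RPKM in YBL574 (log2 fold change 1.12, SE 0.10, limma adjusted p = 9.28e-05). FMP52, a mitochondrial protein, had 87.2 and 123 RPKM in H3T11A, against 49.3 and 50.1 RPKM in YBL574 (1.04, SE 0.14, limma adjusted p = 0.000717), and its call was lost in the fit of the 2 groups alone (limma adjusted p = 0.0692). PRB1, the vacuolar proteinase B, had 224 and 530 RPKM in H3T11A, against 166 and 178 RPKM in YBL574, and its replicates lay far apart. YER068C-A had 3.29 and 11.8 RPKM in H3T11A, against 0.80 and 1.13 RPKM in YBL574, and YEL008W had 3.27 and 5.78 RPKM in H3T11A, against 0.43 and 1.24 RPKM in YBL574. The calls of PRB1, YER068C-A and YEL008W were lost without YBL574 replicate 2 (limma adjusted p = 0.132, 0.0795 and 0.0551), and those of PRB1 and YER068C-A also without YBL574 replicate 3 (0.102 and 0.0542). That of YER068C-A was lost without H3T11A replicate 3 as well (0.0724). Over their alternatives the adjusted p ranged from 2.66e-05 to 0.202 for PRB1, from 0.000835 to 0.109 for YER068C-A and from 0.00353 to 0.0745 for YEL008W.

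The remaining comparisons set groups of the series against WT, and the labels do not say how these groups differ, so strain, mating type and any other difference cannot be told apart. All genes together were shifted in them, with a median log2 fold change of -0.17 for control against WT and -0.36 for YBL574 against WT. Relative to that shift, chromosome V genes had a median of -0.01 in both. They thus showed no offset like that of CK2 in either. Both comparisons share the WT replicates with the CK2 to WT ratio, so their values are not independent of it.

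With control against WT, limma called 57 of 284 genes higher (20.1%) and 100 lower (35.2%), where 22.1% and 36.9% of all genes were. With median-of-ratios scaling, which centres the genes, the split was 75 higher and 79 lower, where 57.2% of all genes were called in either direction. TIR1 had 0.22 and 0.11 RPKM in control, against 34.7 and 58.0 RPKM in WT, which is 3 reads in control in all and makes WT 279-fold higher (95% exact Poisson interval 95.6 to 1350, counting error only). VHR2 had 18.1 and 18.0 RPKM in control, against 138 and 140.0 RPKM in WT (log2 fold change -2.88, or -2.71 relative to all genes, limma adjusted p = 2.29e-06). DSE1 had 82.4 and 69.9 RPKM in control, against 343 and 296 RPKM in WT (-2.06, limma adjusted p = 6.93e-05). FCY2 had 102 and 95.6 RPKM in control, against 447 and 391 RPKM in WT. FMP49 had 0.221 and 0.671 RPKM in control, against 4.96 and 4.25 RPKM in WT, with 4 reads in control in all and WT 10.4-fold higher (95% exact Poisson interval 4.05 to 38). FMP49 overlaps HVG1 on the other strand, so their reads cannot be told apart.

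On the other side, PRB1 had 2026 and 2209 RPKM in control, against 246 and 288 RPKM in WT (log2 fold change 2.99, limma adjusted p = 6.66e-05). YEL073C, near the left end, had 213 and 189 RPKM in control, against 19.5 and 26.7 RPKM in WT (3.08, limma adjusted p = 9.18e-06). PIC2, a mitochondrial carrier, had 472 and 511 RPKM in control, against 99.98 and 111 RPKM in WT, and PCM1, an enzyme on the path to chitin, had 232 and 233 RPKM in control, against 60.3 and 57.5 RPKM in WT. YER053C-A had 493 and 584 RPKM in control, against 120 and 138 RPKM in WT (2.06, limma adjusted p = 0.0169). Its call was lost when any 1 of the 4 libraries was left out, with adjusted p values between 0.0531 and 0.0798. Of the 7 translation and ribosome assembly genes, 1 was higher and 6 were lower in control, where 22.1% and 36.9% of all genes were. Their median log2 fold change was -1.35, beside -0.17 over all genes.

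With YBL574 against WT, limma called 18 of 284 genes higher (6.34%) and 129 lower (45.4%), where 6.42% and 48.4% of all genes were. The split turned with the scaling, to 52 higher and 50 lower under median-of-ratios scaling and 60 higher and 37 lower under upper-quartile scaling. In either direction, 35.9% and 34.7% of all genes were called under these scalings. SPI1 had 151 and 176 RPKM in YBL574, against 1344 and 1402 RPKM in WT (log2 fold change -3.06, or -2.70 relative to all genes, limma adjusted p = 0.000637). RGI1 had 213 and 160 RPKM in YBL574, against 649 and 693 RPKM in WT. GIP2, a partner of protein phosphatase 1, had 13.2 and 17.3 RPKM in YBL574, against 71.0 and 73.4 RPKM in WT. LCP5, a factor of rRNA processing, had 21.9 and 21.6 RPKM in YBL574, against 81.4 and 74.1 RPKM in WT, and YEL034C-A had 3.94 and 3.86 RPKM in YBL574, against 15.5 and 18.0 RPKM in WT. Each of these 5 was below WT with no overlap, and under every scaling tried.

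Among the genes that were higher, TIM9, a chaperone of the mitochondrial intermembrane space, had 136 and 197 RPKM in YBL574, against 70.3 and 69.3 RPKM in WT (log2 fold change 1.22, limma adjusted p = 0.00117). TMT1 averaged 125 ± 2.43 RPKM in YBL574 and 58.8 ± 1.77 RPKM in WT (SD, n = 2 each). UTR2, a cross-linking enzyme of chitin and glucan, had 148 and 150.3 RPKM in YBL574, against 76.2 and 65.2 RPKM in WT, and MNN1 had 87.9 and 101 RPKM in YBL574, against 46.9 and 48.7 RPKM in WT. YEL075C, at the left end, had 13.3 and 10.2 RPKM in YBL574, against 4.90 and 5.05 RPKM in WT, and lost its call without YBL574 replicate 2 (limma adjusted p = 0.057, with a range over its alternatives from 0.00198). All 5 stayed higher under each scaling tried.

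**Figure D5:**
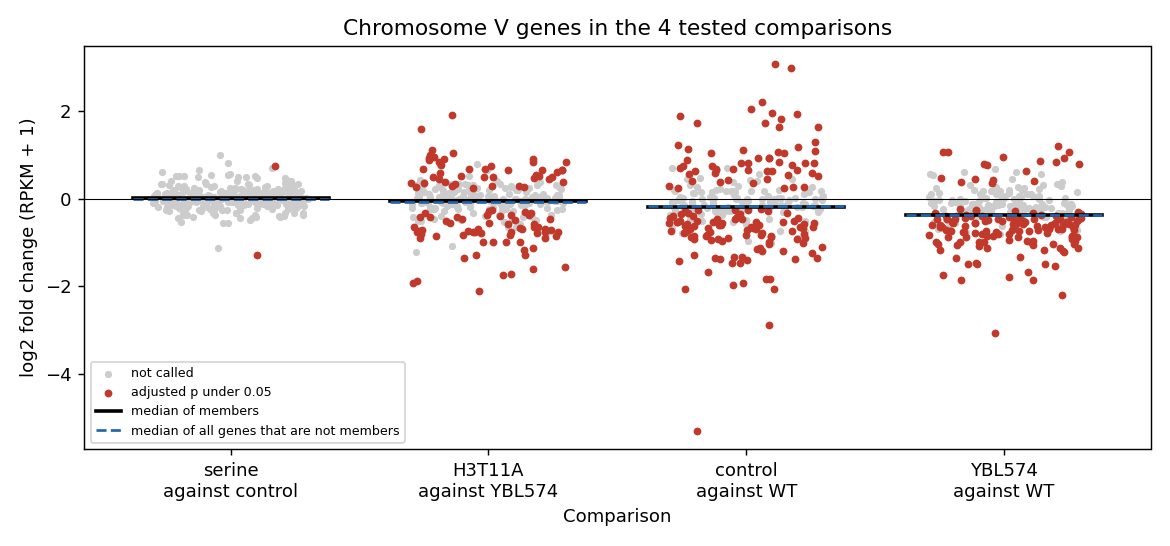
Each point is 1 of the 284 chromosome V genes, with its log2 fold change on the vertical axis in 4 comparisons, each named with the group on top first. Red points passed a limma adjusted p of 0.05, black bars are medians of chromosome V genes (0.03, -0.04, -0.19 and -0.37) and dashed blue bars those of all genes outside the set (0.00, -0.06, -0.17 and -0.36), which lie almost on top of each other.

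Genes not following in CK2 against WT were called in H3T11A against YBL574, which shares no library with CK2 against WT, at shares near or under those of all genes. By limma, 3 of the 29 rose and 6 fell, where 19.1% and 21.6% of all genes did. Their median log2 fold change was -0.35, beside -0.06 over all genes. Of the 198 following genes, 33 rose and 48 fell, with a median of -0.03. With serine against control, the median of the 29 was -0.04. The difference between these sets was not tested.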

How the data were processed

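RNA was measured in 16 libraries of 12 biological replicates in 6 groups, which were assigned by their titles. The authors deposited 1 table of RPKM values for 7125 genes, and the submitters' processing notes name CASAVA 1.8.2, TopHat2 2.0.13, edgeR and the build sacCer3. The counting method, the annotation, the use of strand and the denominator are not given in the sources used here. The low RPKM values step by whole reads, and the read totals fitted to these steps ran from 8774517 to 18078566 per library, with 96.7% to 98.7% of values of at most 100 reads within 0.1 of a whole number. With these totals, 3 reads in a gene of 1 kb correspond to 0.166 to 0.342 RPKM. Such floors and intervals cover counting error only.

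The members and the role lists were chosen with earlier results of these data known. Technical libraries of an extraction were averaged on the RPKM scale. Genes with an RPKM of 1 or more in 2 biological replicates (6727 genes, 284 of them members) were fitted with limma 3.58.1 in R 4.3.3 on log2(RPKM + 1) with all 6 groups and no covariates (eBayes with a trend), with Benjamini-Hochberg adjustment of two-sided p-values across all of them and a threshold of 0.05. A fold change on this scale understates the change of low genes. As nothing in the labels says that replicates came from separate cultures, the p-values measure the spread between these samples, which may be technical. CK2 against WT was described without a test. On simulated data for serine against control (6412 genes), the fit recovered 95% of genes changed by a log2 of 1. Those data gave every gene the same spread around its WT mean and changed no gene of low level. The share therefore does not say how many such changes the fit would find in the measured libraries.

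Named genes were the 12 smallest, 8 largest and 6 highest at WT level in CK2 against WT, the 5 largest and 5 smallest called changes of each tested comparison, and the extremes of each role list, all at 10 RPKM or more for CK2 against WT. Genes whose names are listed to complete a set came in addition, after their values were seen. Alternatives covered the pseudocount (0.1 and 5), the filter, the scaling, the samples in the fit, the trend, each replicate left out and a replicate block. Promoter windows and positions came from RefSeq, build R64, which is sacCer3, through Python 3.11.15. Some items, a searched motif among them, are not reported here.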

Additional observations from a re-analysis of the deposited data

How the results depend on the processing

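The higher level of chromosome V genes in CK2 kept its direction under all 15 alternatives, the 4 that put another group in the place of WT being chosen after seeing the data. The median log2 ratio of 0.915 became 0.941 with a pseudocount of 0.1, 0.822 with 5, 0.893 with no filter, 0.870 with median-of-ratios scaling, 0.928 with the other chromosomes centred and 0.889 with the excluded genes included. It was 1.063 over serine, 1.12 over control, 1.334 over H3T11A and 1.31 over YBL574, and 0.884 to 0.906 with a replicate left out. The count of genes under 0.5 was 29, became 50 over serine and 49 over control, and lay within 1.5 times of 29 under the other 13 alternatives. It was 25 to 37 with a replicate left out. Over H3T11A and YBL574, 9 and 10 of the 29 stayed under 0.5, so a similar count did not mean the same genes. The lowest median of chromosome V outside CK2 was -0.292 with CK2 in the divisor and -0.029 without it. The cause of these changes was not tested, apart from CK2 entering the divisor.

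The 2 calls of serine against control, where 1.34% of all genes were called, became 1 with a pseudocount of 0.1, upper-quartile or median-of-ratios scaling. In the same order, 1.28%, 1.41% and 1.35% of all genes were called. None was left with no filter or no trend (40 and 35 genes at an unadjusted p under 0.05 by limma), or without any 1 replicate. A fit of the 2 groups alone called 2 genes, neither of them a call of the main fit. H3T11A against YBL574 had 107 calls, 12 in a fit of the 2 groups alone, and 57 to 158 with a replicate left out. YBL574 against WT had 147 calls and 97 with upper-quartile scaling, and 113 to 119 with a replicate left out. Control against WT had 157, and 121 to 125 with a replicate left out. The cause was not tested.

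With the replicate number as a replicate block, serine against control had 0 calls by limma (57 at an unadjusted p under 0.05). Control against WT had 186 calls and YBL574 against WT 170, where 66.9% and 63.4% of all genes were called. The CK2 median with this block was 0.914, with 29 genes under 0.5. CK2 replicate 2 has that number in its title but 1 in its description, so its pair in WT is uncertain. The deviations of same-numbered samples correlated across 6727 genes at -0.088, 0.122 and -0.027 in serine against control, control against WT and YBL574 against WT. The labels tie no number to a shared batch or day and these values do not settle it, so the fits without the block stand in the text. H3T11A and YBL574 share 1 replicate number, which allows no such fit. With 2 replicates a group, precision was limited most for low genes, where a few reads decide the value.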

Other observations

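Of the 298 chromosome V genes, 14 stayed under 1 RPKM in all but at most 1 replicate, and 39 had no match in the reference. The 28 unmatched genes that were analysed had a median log2 ratio of CK2 to WT of 0.61, against 0.94 for the 256 matched ones. Of the 40 analysed genes under 10 RPKM in both groups, 4 had both CK2 replicates below both WT replicates. Of all 6727 genes, at any level, 37.6% did. Among the 4 were DSF1, with 1.75 and 3.08 RPKM in CK2, against 5.72 and 5.74 RPKM in WT, and UTR5, with 7.55 and 4.41 RPKM in CK2, against 7.87 and 8.56 RPKM in WT. YER145C-A and YER023C-A were the other 2. These genes were chosen after their values were seen.

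The 22 genes set aside by identifier spread widely in CK2 against WT. MET6, the enzyme that makes methionine, had a mean of 82.4 RPKM in CK2 and 180 RPKM in WT, and CYC7, a form of cytochrome c, 213 RPKM in CK2 and 367 RPKM in WT. The proteasome subunit genes PRE1 and PUP3 had means of 384 and 366 RPKM in CK2, against 167 and 158 RPKM in WT.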
